A study of Mus musculus with 137 samples.

Results

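The effect of losing Beclin1 was set against the effect of the F121A change in Beclin1, in mouse bone marrow-derived macrophages stimulated with LPS and IFN-gamma. In the cohort named KO2, macrophages of Beclin1 flox/flox mice with LysM-Cre (KO) were compared with those of flox/flox mice without Cre (WT). In the cohort named KI, macrophages of mice with F121A on both Beclin1 alleles (F121A) were compared with those of littermate wild types (WT of KI). All mice were 7 weeks old. Marrow was cultured with M-CSF (20 ng/ml) for 7 days, and the cells then received LPS and IFN-gamma (100 ng/ml of each) for 6 h or 24 h. The quantity described is the log2 knockout effect (KO over WT in KO2) minus the log2 F121A effect (F121A over WT in KI), called the difference, so that a positive value means that the knockout effect was the higher one. It rests on 55 stimulated libraries of the 137 in the series: 8 KO and 8 WT libraries of KO2 at 6 h, 8 KO and 7 WT libraries at 24 h, and 6 F121A and 6 WT libraries of KI at each time. KO and F121A macrophages never stood in the same cohort, so mutation and cohort cannot be told apart in this contrast.

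Beclin1 is a subunit of the class III phosphatidylinositol 3-kinase complexes, whose lipid product starts autophagosomes and matures endosomes. Bcl-2 family proteins bind Beclin1 and hold autophagy back, and the F121A change weakens that binding and is known to raise autophagy in mice, so the alleles push this pathway in opposite directions. LPS acts through Toll-like receptor signalling to NF-kB and MAP kinases, and the cytokines, chemokines and antigen-presentation genes that LPS and IFN-gamma induce are limited by feedback proteins such as SOCS3, IkB-alpha and the MAP kinase phosphatases. LysM-Cre is driven by the Lyz2 locus, which is active in macrophages, monocytes and neutrophils.

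Stimulated libraries held 1448218 to 15627379 counts in KO2 and 4613210 to 11786453 in KI. All levels are CPM, counts relative to the library total, with library totals scaled by TMM factors. Becn1 stood at 2.02 to 4.55 CPM in KO against 26 to 46.6 CPM in WT libraries at 6 h, and at 38.2 to 50.5 CPM in F121A against 36.8 to 48.1 CPM in WT libraries of KI, so the deletion was seen, and the F121A and WT ranges overlapped. Lyz2, the locus that carries Cre, had a knockout effect of -1.69 ± 0.10 at 6 h (log2 ± SE). Sex moved with genotype in KO2: Xist was at most 1.38 CPM in stimulated KO libraries and at least 98.1 CPM in all other stimulated libraries of both cohorts, and the Y-linked Ddx3y was at least 6.07 CPM in KO and at most 0.654 CPM elsewhere. Sex and knockout cannot be told apart in KO2. KO mice carried LysM-Cre and WT mice did not, so Cre and the loss of Beclin1 cannot be told apart either. All 12 macrophage markers were detected in every group. Summed levels of 14 neutrophil markers at 24 h were 112 to 156 CPM in KO (6 of the 14 at 0) against 75.4 to 83.7 CPM in WT libraries (5 at 0), and 76.3 to 95.8 CPM in F121A (3 at 0) against 76.7 to 106 CPM in WT libraries of KI (4 at 0). Summed levels of 10 monocyte markers at 24 h were 47.8 to 64.5 CPM in KO against 29.8 to 42.2 CPM in WT libraries (1 at 0 in each), and 68.4 to 86.5 CPM in F121A against 70.9 to 95.7 CPM in WT libraries of KI (none at 0). At 6 h both sums were higher in F121A without overlap: 271 to 350 CPM in F121A against 218 to 265 CPM in WT libraries of KI for the monocyte markers (none at 0), and 114 to 145 CPM against 91.7 to 113 CPM for the neutrophil markers (4 at 0 in each). In KO2 at 6 h they overlapped, with 139 to 219 CPM in KO against 125 to 197 CPM in WT libraries for the monocyte markers and 46.8 to 71 CPM against 56 to 80.7 CPM for the neutrophil markers. The monocyte sum did not hold for every member, as Plac8 was called lower in F121A and higher in KO at 6 h. The sums of 8 erythroid and megakaryocyte markers at 6 h were 42 to 59 CPM in KO against 93.2 to 148 CPM in WT libraries of KO2. In KI they were 12.7 to 19.3 CPM in F121A against 6.57 to 15.1 CPM in WT libraries. In KO2 at 24 h they overlapped, at 16.4 to 26.2 CPM in KO against 22.6 to 55.6 CPM in WT libraries. The sums of 11 dendritic cell markers at rest were 94.1 to 180 CPM in KO against 49.3 to 77.5 CPM in WT libraries of KO2. In KI they were 60.3 to 83.6 CPM in F121A against 55.4 to 72.7 CPM in WT libraries. In KO2 the dendritic cell sums overlapped at 6 h, at 731 to 1080 CPM in KO against 502 to 834 CPM in WT libraries. At 24 h they also overlapped, at 958 to 1720 CPM against 824 to 1560 CPM in the same groups. The part of these marker levels in the results was not tested, and in bulk RNA fewer cells of a type and less RNA per cell cannot be told apart. The labels do not say whether libraries came from separate mice or cultures, so p-values measure the spread between libraries, which may be technical.

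The 6 WT libraries of KI at 24 h stood apart from each other. Their deviations from the group mean over 4286 genes correlated at 0.0952 to 0.572 within replicates 1, 3 and 5 and within replicates 2, 4 and 6, and at -0.764 to -0.198 between these sets. In the other KI groups pairs within a set reached 0.121 at most. Tnf, which encodes the cytokine TNF, stood at 163 to 212 CPM in F121A libraries, against 685 to 899 CPM in WT replicates 1, 3 and 5 and 164 to 216 CPM in WT replicates 2, 4 and 6. Il12b, the p40 chain of IL-12 and IL-23, stood at 50.4 to 143 CPM in F121A libraries, against 219 to 264 CPM and 216 to 300 CPM in the same sets. Tnf thus differed between the WT sets and Il12b did not, and results at 24 h are given without each set as well, a choice made after seeing the data. KO replicate 7 at 6 h deviated from its group by 0.592 (root mean square, log2), against a median of 0.264 for that group, and 1 WT library of KI at 6 h carried labels that disagreed on its time.

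A gene was called at a Benjamini-Hochberg adjusted p under 0.05 in edgeR's quasi-likelihood test over the 11782 genes tested. The difference was called for 1434 genes at 6 h (12.2% of those tested), 615 higher (5.22%) and 819 lower (6.95%), and for 836 genes at 24 h (7.1%), 481 higher (4.08%) and 355 lower (3.01%). At rest it was called for 456 genes (3.87%), 194 higher (1.65%) and 262 lower (2.22%). Behind these calls, the knockout effect alone was called in 44.9% at 6 h and 51.6% at 24 h, and the F121A effect alone in 27.3% and 20.7%. The knockout effect was called in 16.1% of genes at 6 h, 8.86% higher and 7.28% lower, and in 11.5% at 24 h, 6.31% higher and 5.17% lower. The F121A effect was called in 8.91% at 6 h, 6.25% higher and 2.67% lower, and in 5.46% at 24 h, 2.47% higher and 2.99% lower. At rest the knockout effect was called in 8.74%, 3.89% higher and 4.85% lower, and the F121A effect in 2.68%, 2.33% higher and 0.348% lower.

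Genes on which the mutations acted in opposite ways were those called in the knockout effect, called in the F121A effect with the other sign, and called in the difference. There were 201 at 6 h (1.71% of genes tested), 53 higher in KO and lower in F121A (0.45%) and 148 lower in KO and higher in F121A (1.26%). At 24 h there were 110 (0.934%), 71 higher in KO and lower in F121A (0.603%) and 39 the other way (0.331%), and at rest there were 18 (0.153%), with 0.0594% and 0.0934% of genes in these directions. Genes called in both effects with the same sign numbered 125 at 6 h, 108 at 24 h and 32 at rest. The opposite genes were thus the larger part of the genes called in both effects at 6 h, close to equal in number at 24 h and the smaller part at rest. Over the 53 genes the median knockout effect was 0.54 and the median F121A effect -0.53, over the 148 genes -0.60 and 0.69, over the 71 genes 0.98 and -0.77, and over the 39 genes -0.45 and 0.53, values that the choice of members fixed in sign. Across all genes the Pearson r of the effects was -0.00863 at 6 h and 0.00535 at 24 h, a description over genes of the same libraries. At the edge of the rule lay Tnfrsf12a just inside (adjusted p = 0.0496 in the F121A effect at 6 h) and Vipas39 just outside (0.0502), and at 24 h Samhd1 just inside (adjusted p = 0.0485 in the knockout effect) and Gdf3 just outside (0.0502). Chromosome X held 3 of the 201 genes (Il13ra1, Elf4 and Cfp) and 1 of the 110 (Cfp).

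**Figure D1:**
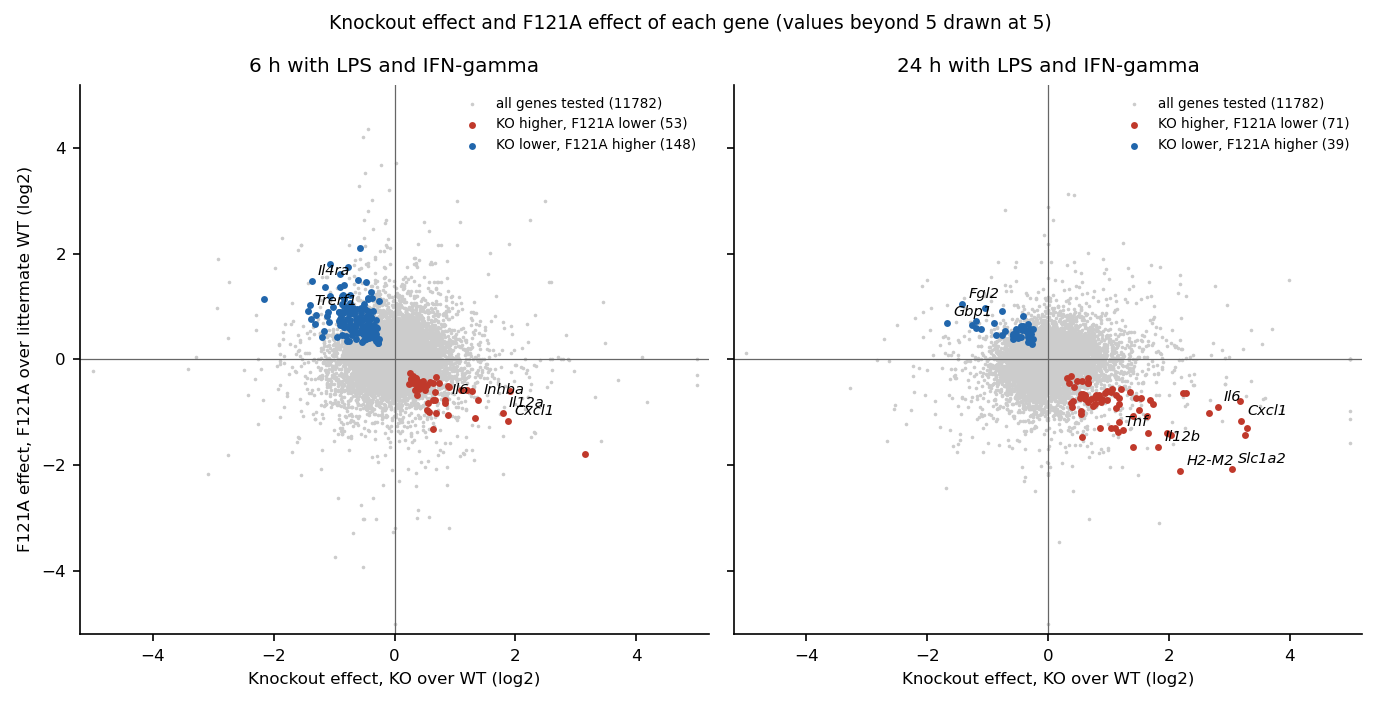
Log2 knockout effect in KO2 (x axis) against log2 F121A effect in KI (y axis) for the 11782 genes tested at 6 h and 24 h, with values beyond 5 drawn at 5; red points are genes called higher in KO and lower in F121A (53 and 71) and blue points those called lower in KO and higher in F121A (148 and 39). The blue group is the larger one at 6 h and the red group the larger one at 24 h.

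Genes higher in KO and lower in F121A at both times included a cluster of chemokine genes and Il6. Cxcl1, Cxcl2 and Cxcl3 encode ligands of the receptor CXCR2 that draw neutrophils, Il6 encodes interleukin-6, and NF-kB is known to drive all of them. Their promoters are printed because these genes were opposite at 6 h and at 24 h and each holds a match to the NF-kB consensus close to its start. Each stretch is the 110 bases before the RefSeq start on the plus strand of GRCm38.p6, at chr5:90891135-90891244 for Cxcl1, chr5:90903789-90903898 for Cxcl2, chr5:90785991-90786100 for Cxcl3 and chr5:30013004-30013113 for Il6. Capitals mark the match in Il6, and in the chemokine genes they cover overlapping matches on both strands.
Cxcl1: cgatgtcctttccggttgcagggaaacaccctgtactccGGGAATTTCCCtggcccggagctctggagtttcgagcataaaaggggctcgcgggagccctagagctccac
Cxcl2: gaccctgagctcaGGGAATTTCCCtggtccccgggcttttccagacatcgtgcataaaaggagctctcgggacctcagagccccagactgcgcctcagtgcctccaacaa
Cxcl3: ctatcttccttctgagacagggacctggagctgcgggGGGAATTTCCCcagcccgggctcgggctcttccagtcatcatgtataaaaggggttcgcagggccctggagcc
Il6: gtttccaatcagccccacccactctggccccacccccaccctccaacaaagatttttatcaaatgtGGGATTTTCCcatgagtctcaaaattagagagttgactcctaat

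The capitals begin 71 bases before the start in Cxcl1, 97 in Cxcl2, 73 in Cxcl3 and 44 in Il6, and the chemokine genes share the same letters. From 250 bases before to 50 after the start, searched on both strands, the consensus was found in 6.39% of the 8143 tested genes with a promoter in the RefSeq table. Among opposite genes with a promoter it was found in 5 of 40 higher in KO (12.5%) and 17 of 118 lower in KO (14.4%) at 6 h. At 24 h it was found in 7 of 53 (13.2%) and 5 of 29 (17.2%). Some of these genes, such as Cxcl1 and C1qc, were counted at both times. Promoters of genes that moved in either direction thus held it, Il4ra, Nfkbia and C1qc among those lower in KO, and a match is no measure of binding.

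Cxcl1 at 6 h stood at 109, 278 and 449 CPM (lowest, median and highest library) in KO, against 50.3, 65.5 and 110.3 CPM in WT libraries of KO2, and at 10.6, 13.2 and 21.6 CPM in F121A, against 25.7, 34.4 and 40.9 CPM in WT libraries of KI. In KO2 7 of 8 KO libraries lay above every WT library, and in KI all 6 F121A libraries lay below every WT library. The knockout effect was 1.88 ± 0.18, the F121A effect -1.17 ± 0.23 and the difference 3.05 ± 0.29 (log2 ± SE, adjusted p = 3.32e-14). Cxcl3 had a difference of 2.44 ± 0.28, adjusted p = 2.92e-11, and Cxcl2 one of 1.72 ± 0.20, adjusted p = 1.59e-10.

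Il6 at 6 h stood at 846, 1385 and 1560 CPM in KO, against 478, 642 and 1133 CPM in WT libraries of KO2, and at 1575, 1799 and 2111 CPM in F121A, against 2729, 2908 and 3970 CPM in WT libraries of KI. F121A libraries were the lower group of their cohort and still lay above every KO library, because levels in KI were the higher ones. The difference was 1.60 ± 0.27, adjusted p = 2.48e-06.

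Cytokine genes made up 5 of the 53 genes higher in KO and lower in F121A at 6 h. Il12a, the p35 chain of IL-12, stood at 15.8 to 38.8 CPM in KO against 4.12 to 10.8 CPM in WT libraries of KO2, and at 24.1 to 29.6 CPM in F121A against 41.7 to 60 CPM in WT libraries of KI (difference 2.81 ± 0.25, adjusted p = 3.94e-15). Neither pair of groups overlapped, and the same held for Il1a, the alarmin interleukin-1-alpha (1.88 ± 0.22), Inhba, the subunit of activin A (2.15 ± 0.21), and Tnfsf15, the TNF family ligand TL1A (2.52 ± 0.26). In all, 9 of the 53 genes overlapped in neither cohort. Of all genes tested, 1.37% lay above WT without overlap in KO, and 1.51% below WT without overlap in F121A. These shares, here and below, are for each cohort alone, and the share of all genes without overlap in both was not computed. Members were chosen by tests on the same libraries, which favours groups that do not overlap. Over the 27 cytokine genes tested, KO called 12 higher and 1 lower (median 0.29), F121A called 3 higher and 5 lower (median 0.00), and the difference was called for 8 higher and 2 lower (median 0.32), against a median of 0.03 over all genes.

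Other members of this direction at 6 h had roles in sensing, transport and lysosomes. Cd14, the LPS co-receptor, stood at 9892 to 14160 CPM in KO against 6656 to 9419 CPM in WT libraries of KO2, and at 1789 to 2389 CPM in F121A against 2009 to 4361 CPM in WT libraries of KI (difference 1.42 ± 0.23, adjusted p = 2e-06). In KO2 the groups did not overlap, and in KI 3 of 6 F121A libraries lay below every WT library. Slc7a11, the cystine transporter, had a difference of 1.49 ± 0.19, Met, the receptor of hepatocyte growth factor, 1.78 ± 0.23, and Hvcn1, the proton channel, 1.44 ± 0.20. Mcoln1, a calcium channel of lysosomes, had 1.09 ± 0.20, and the autophagy genes Gabarapl1 and Vmp1 had 0.83 ± 0.19 and 0.51 ± 0.11.

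**Figure D2:**
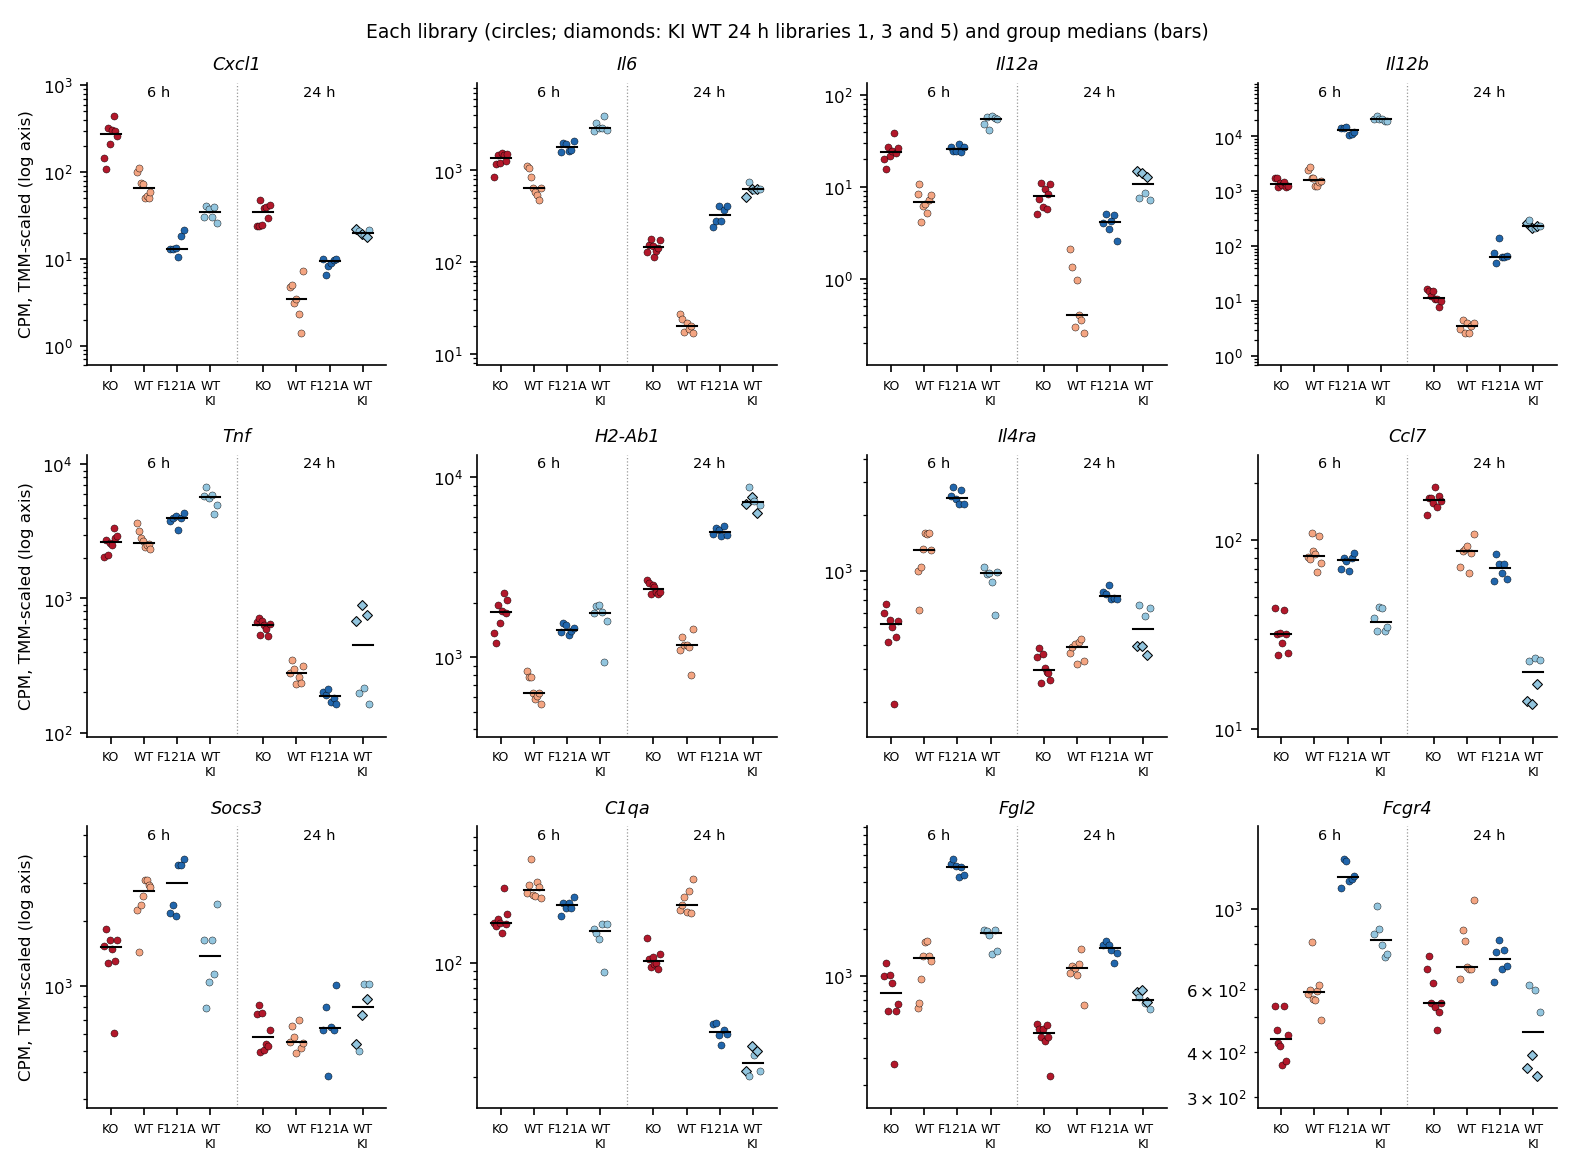
TMM-scaled CPM of every stimulated library (log axis) for 12 genes, with KO and WT of KO2 and F121A and WT of KI at 6 h and 24 h; circles are libraries, diamonds are WT replicates 1, 3 and 5 of KI at 24 h, and bars are group medians. Il12a lies higher in KO than in WT and lower in F121A than in WT at both times, while Il4ra at 6 h shows the reverse.

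The larger direction at 6 h, lower in KO and higher in F121A, held cytokine receptors, feedback genes and genes of macrophage identity. Il4ra, the receptor chain for IL-4 and IL-13, stood at 194, 521 and 668 CPM in KO, against 622, 1309 and 1614 CPM in WT libraries of KO2, and at 2302, 2488 and 2832 CPM in F121A, against 581, 974 and 1053 CPM in WT libraries of KI. In KO2 7 of 8 KO libraries lay below every WT library, and in KI the groups did not overlap. The knockout effect was -1.37 ± 0.14, the F121A effect 1.47 ± 0.16 and the difference -2.85 ± 0.21, adjusted p = 4.29e-19. Receptor chains for interferons moved the same way, with differences of -1.01 ± 0.12 for Ifngr2 and -1.0 ± 0.17 for Ifnar1.

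Chemokines split between the directions. Ccl7, which draws monocytes through CCR2, stood at 24.7 to 43.6 CPM in KO against 67.2 to 109 CPM in WT libraries of KO2, and at 68.1 to 85.5 CPM in F121A against 32.8 to 44.4 CPM in WT libraries of KI (difference -2.42 ± 0.19, adjusted p = 8.9e-19). Groups overlapped in neither cohort. Ccl12, another CCR2 ligand, had a difference of -1.36 ± 0.19, adjusted p = 4.38e-08. Of 22 chemokine genes tested, the difference was called for 4 higher and 7 lower (median -0.30).

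Genes of the IL-10, STAT3 and SOCS feedback list had higher values in F121A. Of 21 tested, F121A called 11 higher and none lower (median 0.47) and KO called 2 higher and 6 lower (median -0.09), and the difference was called for none higher and 10 lower (median -0.80). Socs3, which limits IL-6 family signalling, stood at 608 to 1833 CPM in KO against 1437 to 3076 CPM in WT libraries of KO2, and at 2101 to 3875 CPM in F121A against 796 to 2393 CPM in WT libraries of KI (difference -1.90 ± 0.29, adjusted p = 3.66e-07). Its groups overlapped in both cohorts, with 3 of 8 KO libraries below every WT library and 3 of 6 F121A libraries above every WT library. Sbno2, a STAT3 target that represses NF-kB, had a difference of -1.54 ± 0.17, adjusted p = 1.23e-11.

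Immediate-early genes and MAP kinase phosphatases also had lower differences. Of 28 tested, KO called 2 higher and 7 lower (median -0.12), F121A called 8 higher and none lower (median 0.44), and the difference was called for none higher and 12 lower (median -0.50). Ier2, an immediate-early gene, stood at 65.5 to 103 CPM in KO against 122 to 209 CPM in WT libraries of KO2, and at 56.1 to 69.6 CPM in F121A against 20.2 to 49.9 CPM in WT libraries of KI (difference -1.81 ± 0.18, adjusted p = 8.33e-14). Dusp1, the phosphatase that shuts off p38 and JNK, stood at 536 to 939.8 CPM in KO against 828 to 1298 CPM in WT libraries of KO2, and at 806 to 1143 CPM in F121A against 229 to 405 CPM in WT libraries of KI (difference -1.94 ± 0.19, adjusted p = 3.39e-14). Ier2 overlapped in neither cohort, and Dusp1 did not overlap in KI. Feedback genes of NF-kB were among the members too: Tnip3, an inhibitor that binds A20, had a difference of -1.54 ± 0.15, adjusted p = 2.5e-14, and Nfkbia, which encodes IkB-alpha, had -0.72 ± 0.17, adjusted p = 0.000994. Over the 21 genes of the NF-kB list the difference was called for 1 higher and 5 lower (median -0.20).

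Macrophage identity genes mostly had lower values in KO at 6 h. Of 24 tested, KO called 1 higher and 12 lower (median -0.44), F121A called 3 higher and 2 lower (median 0.08), and the difference was called for 2 higher and 8 lower (median -0.55). The summed level of 12 macrophage markers at 6 h was 24600 to 34100 CPM in KO against 35000 to 48300 CPM in WT libraries of KO2, and 58900 to 72000 CPM in F121A against 61200 to 81300 CPM in WT libraries of KI. These markers include Lyz2, the locus that carries Cre, which was lower in KO, and Cd14, which was higher in KO. The part of this sum in the result was not tested. Outside that list, Cebpd, a C/EBP factor induced by LPS and IL-6, had a difference of -2.51 ± 0.30, Mrc1, the mannose receptor CD206, -1.75 ± 0.31, and Apoe, apolipoprotein E, -1.99 ± 0.22. Receptors for IgG took this direction as well. Fcgr3 stood at 234 to 417 CPM in KO against 511 to 873 CPM in WT libraries of KO2, and at 1225 to 1532 CPM in F121A against 906 to 1192 CPM in WT libraries of KI (difference -1.62 ± 0.19, adjusted p = 1.28e-10), with no overlap in either cohort, and Fcgr1 had -1.60 ± 0.16, adjusted p = 1.24e-13. In all, 25 of the 148 genes overlapped in neither cohort. Of all genes tested, 1.03% lay below WT without overlap in KO, and 4.16% above WT without overlap in F121A.

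Base composition moved with the 6 h result. The median exonic GC content was 45.6% in the genes higher in KO and lower in F121A and 54.4% in those lower in KO and higher in F121A, against 50.2% over all tested genes with a value. Across genes the F121A effect at 6 h had a Spearman rho of 0.203 with GC content and the difference one of -0.202, against -0.0161 for the difference at 24 h. The single effects at 24 h did have a trend, with a rho of -0.138 for the knockout effect and -0.123 for the F121A effect. After the GC trend of each library was removed, 37 of the 53 and 116 of the 148 genes were still opposite, and all kept both signs. The F121A effect at 6 h then called 593 genes higher and 398 lower, in place of 736 and 314.

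Inflammatory cytokines made up 6 of the 71 genes higher in KO and lower in F121A at 24 h. Of 27 tested, KO called 18 higher and none lower (median 1.11), F121A called 3 higher and 6 lower (median -0.30), and the difference was called for 15 higher and 2 lower (median 1.45), against a median of -0.01 over all genes. Without WT replicates 1, 3 and 5 of KI, F121A called 1 higher and 5 lower (median 0.06) and the difference 14 higher and 1 lower (median 1.21), and without replicates 2, 4 and 6 the difference was called for 17 higher and 2 lower (median 2.0). The 6 were Il12b, Il12a, Tnf, Il6, Il1f9 and Il1a. Il1f9, an interleukin-1 family member, had an F121A effect of -1.31 ± 0.21 that was -0.49 ± 0.24, adjusted p = 0.536 without replicates 1, 3 and 5.

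Il12b at 24 h stood at 8.02, 11.8 and 16.6 CPM in KO, against 2.69, 3.53 and 4.57 CPM in WT libraries of KO2, and at 50.4, 65.2 and 143 CPM in F121A, against 216, 232 and 300.3 CPM in WT libraries of KI. Groups overlapped in neither cohort, and levels in KI were the higher ones in both genotypes. The difference was 3.48 ± 0.46, adjusted p = 6.66e-09. Its F121A effect was -1.69 ± 0.35 without WT replicates 1, 3 and 5 and -1.63 ± 0.35 without replicates 2, 4 and 6, so the F121A effect was of like size against both sets.

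Il6 at 24 h stood at 114, 146 and 180.2 CPM in KO, against 17, 20.3 and 27.4 CPM in WT libraries of KO2, and at 241, 326 and 412 CPM in F121A, against 510, 622 and 745 CPM in WT libraries of KI (difference 3.72 ± 0.28, adjusted p = 4.75e-19). Cxcl1 stood at 23.7 to 47.6 CPM in KO against 1.41 to 7.21 CPM in WT libraries of KO2, and at 6.62 to 10.1 CPM in F121A against 18.1 to 22.3 CPM in WT libraries of KI (difference 4.36 ± 0.34, adjusted p = 8.03e-19). For both genes all KO libraries lay above every WT library and all F121A libraries below. Il12a had a difference of 4.69 ± 0.33, adjusted p = 2.81e-20 and Il1a one of 3.98 ± 0.23, adjusted p = 6.44e-26. The F121A effect of Il1a lost its call without WT replicates 1, 3 and 5 (-0.72 ± 0.20, adjusted p = 0.0502). Levels of Il12a in KO2 were low, at 5.06 to 11.05 CPM in KO against 0.257 to 2.08 CPM in WT libraries. In KI it stood at 12.9 to 15.1 CPM in WT replicates 1, 3 and 5 and 7.25 to 8.53 CPM in WT replicates 2, 4 and 6. Its F121A effect was -1.43 ± 0.21 with all libraries and -0.94 ± 0.25, adjusted p = 0.0415 without replicates 1, 3 and 5. Slpi, an inhibitor of leukocyte proteases (2.46 ± 0.23), and Cav1, the membrane protein caveolin-1 (2.41 ± 0.18), overlapped in neither cohort and were opposite without either set.

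Tnf and Ccl3, a chemokine for monocytes and lymphocytes, were among the genes that were not opposite at 24 h without WT replicates 1, 3 and 5 of KI. Tnf stood at 526.1 to 717 CPM in KO against 228 to 349.7 CPM in WT libraries of KO2. Its F121A effect was -1.38 ± 0.20 with all libraries, -0.05 ± 0.16, adjusted p = 0.976 without replicates 1, 3 and 5, and -2.06 ± 0.15 without replicates 2, 4 and 6. Its difference was still called without replicates 1, 3 and 5 (1.21 ± 0.19, adjusted p = 2.24e-06), as KO alone was higher there. Ccl3 had a difference of 4.61 ± 0.28, adjusted p = 5.87e-25, with an F121A effect of -1.31 ± 0.20 that became -0.12 ± 0.17 without replicates 1, 3 and 5. Of all 110 opposite genes at 24 h, 23 were still opposite without replicates 1, 3 and 5, 97 without replicates 2, 4 and 6, and 18 in both cases. The difference was still called in 103 of the 110 in both cases, and the F121A effect changed sign without replicates 1, 3 and 5 in 4 genes.

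**Figure D3:**
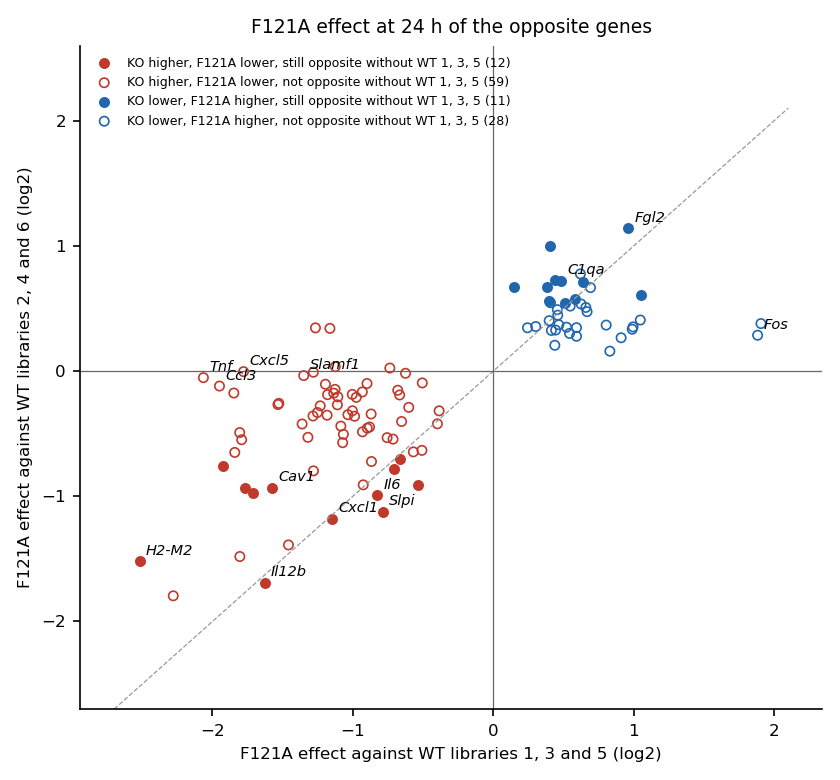
Log2 F121A effect at 24 h of the 110 opposite genes, against WT replicates 1, 3 and 5 of KI (x axis) and against WT replicates 2, 4 and 6 (y axis); filled points (12 red, 11 blue) were still opposite without replicates 1, 3 and 5, and the dashed line marks equal effects. Il12b and Cxcl1 lie near that line, and Tnf and Ccl3 lie near 0 on the y axis.

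MHC class II genes, which present antigen to CD4 T cells, were called higher in KO at both times and lower in F121A at 24 h. At 6 h KO called 6 higher and none lower (median 1.31) of 9 genes, F121A called none (median -0.15; 1 gene at an unadjusted p under 0.05 in edgeR's test, and none called by DESeq2), and the difference was called for 6 higher and none lower (median 1.01). At 24 h KO called 4 higher and none lower (median 0.45), F121A called none higher and 5 lower (median -0.61), and the difference was called for 5 higher and none lower (median 0.87). H2-Ab1, the beta chain of I-A, stood at 2242 to 2691 CPM in KO against 801 to 1431 CPM in WT libraries of KO2 at 24 h, and at 4704 to 5392 CPM in F121A against 6367 to 8831 CPM in WT libraries of KI (difference 1.63 ± 0.23, adjusted p = 3.43e-08). Groups overlapped in neither cohort. H2-Aa, H2-Eb1 and H2-DMb1 were opposite too, and H2-Eb1 was still opposite without either set of WT libraries. The F121A effect of H2-Ab1 was -0.57 ± 0.17 with all libraries, -0.63 ± 0.20, adjusted p = 0.148 without replicates 1, 3 and 5, and -0.51 ± 0.20, adjusted p = 0.112 without replicates 2, 4 and 6. That of H2-Aa was -0.61 ± 0.17, -0.65 ± 0.21, adjusted p = 0.153 and -0.57 ± 0.21, adjusted p = 0.074 in the same order, so both kept their size and lost the call without either set. That of H2-DMb1 was -0.81 ± 0.15, and -0.51 ± 0.17, adjusted p = 0.201 without replicates 1, 3 and 5. Over the list F121A called none higher and 1 lower (median -0.52) without replicates 1, 3 and 5. At rest the difference was already called for 6 higher and none lower (median 1.31). H2-M2, a non-classical class I gene, stood at 25.6 to 51.7 CPM in KO against 5.29 to 10.6 CPM in WT libraries of KO2, and at 6.37 to 11.1 CPM in F121A against 20.3 to 57 CPM in WT libraries of KI (difference 4.31 ± 0.31, adjusted p = 1.26e-20), and was opposite without either set. In all, 21 of the 71 genes overlapped in neither cohort. Of all genes tested, 2.38% lay above WT without overlap in KO, and 1.19% below WT without overlap in F121A.

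Complement genes took the other direction at both times, with 6 and 7 of 12 called lower in the difference. C1qa, C1qb and C1qc encode the chains of C1q, which starts the classical pathway. C1qa at 24 h stood at 92.5, 104 and 143 CPM in KO, against 204, 228 and 328 CPM in WT libraries of KO2, and at 31.5, 37.8 and 42.8 CPM in F121A, against 20.3, 24.4 and 31.1 CPM in WT libraries of KI. Groups overlapped in neither cohort. The difference was -1.25 ± 0.19, adjusted p = 2.1e-07 at 6 h and -1.78 ± 0.20, adjusted p = 1.71e-11 at 24 h. C1qc had -1.54 ± 0.20 and -1.69 ± 0.20, and C1qb -0.87 ± 0.14 and -1.22 ± 0.14. Over the 12 complement genes tested, KO called 2 higher and 7 lower (median -0.43) at 24 h and F121A called 6 higher and 1 lower (median 0.45). The difference was called for none higher and 6 lower (median -0.88) at 6 h and 1 higher and 7 lower (median -1.04) at 24 h, and without WT replicates 1, 3 and 5 of KI for 1 higher and 7 lower (median -1.13). The gene higher at 24 h was Cfb, factor B of the alternative pathway, at 15.9 to 44 CPM in KO against 14.4 to 28.1 CPM in WT libraries of KO2, and 11.8 to 20 CPM in F121A against 14.3 to 35.2 CPM in WT libraries of KI (1.48 ± 0.27, adjusted p = 3.15e-05). Its F121A effect was -0.76 ± 0.20 with all libraries and -0.27 ± 0.24, adjusted p = 0.852 without replicates 1, 3 and 5.

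Fgl2, a prothrombinase whose secreted form suppresses T cells, stood at 229 to 490.4 CPM in KO against 650.5 to 1503 CPM in WT libraries of KO2 at 24 h, and at 1211 to 1678 CPM in F121A against 615 to 819 CPM in WT libraries of KI. Groups overlapped in neither cohort, and the difference was -2.46 ± 0.28, adjusted p = 6.63e-11. C5ar1, the receptor of the chemoattractant C5a, had -1.05 ± 0.15, adjusted p = 1.22e-07, and Themis2, a signalling adaptor, had -1.11 ± 0.15, adjusted p = 1.41e-08. These 3 genes and C1qa were still opposite without WT replicates 1, 3 and 5. Without replicates 2, 4 and 6 Fgl2 and Themis2 were still opposite, while the F121A effect of C1qa was 0.48 ± 0.18, adjusted p = 0.0956 and that of C5ar1 0.38 ± 0.14, adjusted p = 0.077. Some genes kept their F121A effect and lost its call with fewer libraries. C1qb had 0.45 ± 0.11 with all libraries and 0.45 ± 0.13, adjusted p = 0.106 without replicates 1, 3 and 5. C1qc had 0.58 ± 0.15, and 0.54 ± 0.18, adjusted p = 0.185 without them. Gbp1, an interferon-induced GTPase (difference -2.37 ± 0.39), had 0.70 ± 0.19, 0.78 ± 0.25, adjusted p = 0.15 without replicates 1, 3 and 5, and 0.62 ± 0.24, adjusted p = 0.101 without replicates 2, 4 and 6. In other genes the F121A effect was smaller without replicates 1, 3 and 5. Ccnd1, cyclin D1 (difference -1.91 ± 0.24), had 0.72 ± 0.17 with all libraries and 0.41 ± 0.20 without them, and Fcgr4, an IgG receptor (difference -1.05 ± 0.18), 0.63 ± 0.13 and 0.33 ± 0.15. Fos, a subunit of AP-1 (difference -1.68 ± 0.23), had 0.91 ± 0.18 with all libraries. Its F121A effect was 0.29 ± 0.17, adjusted p = 0.668 without replicates 1, 3 and 5 and 1.88 ± 0.18 without replicates 2, 4 and 6. In all, 10 of the 39 genes overlapped in neither cohort. Of all genes tested, 1.01% lay below WT without overlap in KO, and 2.03% above WT without overlap in F121A.

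**Figure D4:**
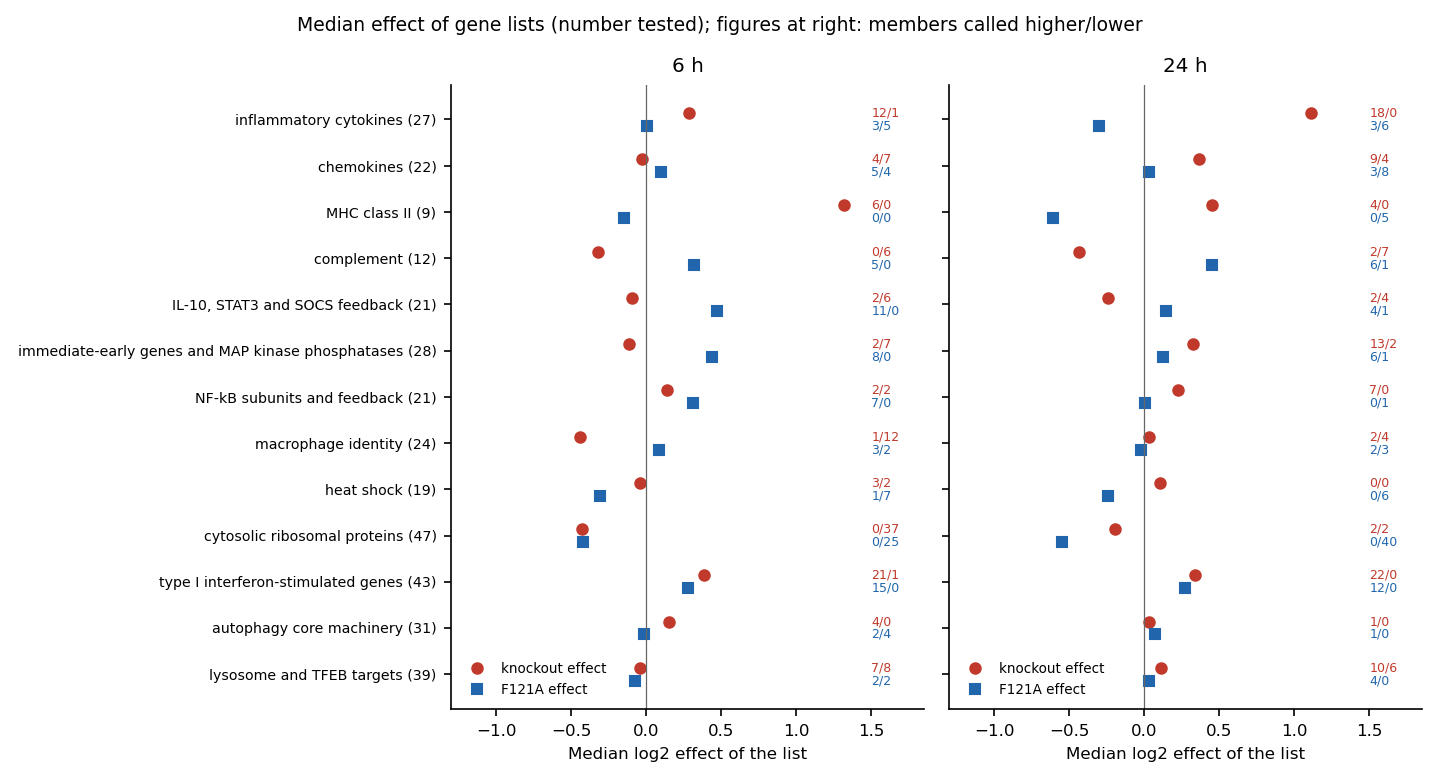
Median log2 knockout effect (red circles) and F121A effect (blue squares) over the tested members of 13 gene lists at 6 h and 24 h; numbers at the right of each panel give members called higher and lower in each effect. Complement genes have medians on opposite sides of 0 at both times, and type I interferon-stimulated genes have both medians above 0.

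The 6 h and 24 h sets shared 26 genes, 12.9% of the 6 h set and 23.6% of the 24 h set, and 24 of these kept their direction. The 11 higher in KO and lower in F121A at both times were Cxcl1, Cxcl2, Cxcl3, Il6, Il12a, Il1a, Hvcn1, Cav1, Slc7a11, F10 and St3gal1. Of these, Cxcl1, Cxcl3, Il6, Il12a and Cav1 were still opposite at 24 h without WT replicates 1, 3 and 5 of KI, where the F121A effect was -0.01 ± 0.15 for Hvcn1, -0.10 ± 0.16 for St3gal1, -0.21 ± 0.18 for F10, -0.29 ± 0.17 for Slc7a11 and -0.54 ± 0.19, adjusted p = 0.191 for Cxcl2. The 13 of the other direction were C1qa, C1qb, C1qc, Cfp, Fcgr4, Fgl2, Ccnd1, Themis2, Glipr2, Fgd2, Neurl3, Oxct1 and Sdc3. Of these, C1qa, Cfp, Fgl2, Themis2 and Fgd2 were still opposite without replicates 1, 3 and 5, though C1qa and Fgd2 were not without replicates 2, 4 and 6. Nek6, a kinase, and Slamf1, a receptor of the SLAM family, were lower in KO and higher in F121A at 6 h and the reverse at 24 h with all libraries. Without WT replicates 1, 3 and 5 the F121A effect at 24 h was -0.26 ± 0.14, adjusted p = 0.625 for Nek6 and -0.04 ± 0.19, adjusted p = 0.996 for Slamf1, so neither reversal held without them.

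The change of the difference between the times, tested itself, was called for 684 genes (5.81%), 457 higher (3.88%) and 227 lower (1.93%) at 24 h than at 6 h. Il12b moved by 3.13 ± 0.59, adjusted p = 9.95e-05. At 6 h it stood at 1180 to 1768 CPM in KO against 1247 to 2774 CPM in WT libraries of KO2, and at 10570 to 14860 CPM in F121A against 19080 to 23980 CPM in WT libraries of KI, with a difference of 0.36 ± 0.38, adjusted p = 0.63. Il6 moved by 2.12 ± 0.38, adjusted p = 4.13e-05, Il1a by 2.1 ± 0.31, adjusted p = 5.01e-07 and Cxcl1 by 1.31 ± 0.44, adjusted p = 0.0614, so the last did not pass the test. Feedback genes moved up as well, Ier2 by 2.27 ± 0.27, adjusted p = 4.59e-10, Dusp1 by 2.0 ± 0.26, adjusted p = 1.67e-08 and Socs3 by 2.21 ± 0.41, adjusted p = 7.13e-05. At 24 h Dusp1 was called higher in both mutants (0.87 ± 0.13 in KO and 0.81 ± 0.14 in F121A), with a difference of 0.06 ± 0.19, adjusted p = 0.929. Dusp1 stood at 318 to 423 CPM in F121A libraries, against 125 to 153 CPM in WT replicates 1, 3 and 5 and at most 310 CPM in WT replicates 2, 4 and 6. Its difference was 0.46 without the first set and -0.49 without the second, called in neither case. Ccl7 was also called higher in both mutants at 24 h (0.92 ± 0.12 in KO and 1.90 ± 0.14 in F121A), with 60.4 to 84.1 CPM in F121A libraries against 13.5 to 17.3 CPM and 22.8 to 23.6 CPM in the same WT sets. Of the 53 genes higher in KO and lower in F121A at 6 h, the difference was called higher for 19 at 24 h and lower for none. Of the 71 genes of that direction at 24 h, the difference at 6 h was called higher for 28 and lower for 7. Of the 148 genes lower in KO and higher in F121A at 6 h, 88 moved up and none down, which the choice of members at 6 h favours.

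Some large differences came from 1 effect. Dusp2, a MAP kinase phosphatase, had a difference of -4.81 ± 0.30, adjusted p = 2.88e-24 at 6 h. It stood at 207 to 532 CPM in F121A against 14.1 to 33.5 CPM in WT libraries of KI, and at 133 to 438 CPM in KO against 283 to 490.3 CPM in WT libraries of KO2, where the knockout effect was -0.45 ± 0.18, adjusted p = 0.0736. Il10, the anti-inflammatory cytokine, had a difference of 3.14 ± 0.38, adjusted p = 5.22e-10 at 24 h: it stood at 9.19 to 22.9 CPM in KO against 0.478 to 2.84 CPM in WT libraries of KO2, and at 1.96 to 4.39 CPM in F121A against 1.18 to 3.45 CPM in WT libraries of KI, with an F121A effect of 0.56 ± 0.28, adjusted p = 0.284. At 6 h its difference was -1.06 ± 0.28, adjusted p = 0.00375, with an F121A effect of 1.55 ± 0.22. Il10 thus rose in KO at 24 h (3.71 ± 0.25), as Il6, Il12a and Il12b did.

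Interferon-stimulated and ribosomal protein genes had medians of the same sign in both mutants. Of 43 type I interferon-stimulated genes tested, KO called 21 higher and 1 lower (median 0.38) at 6 h and F121A called 15 higher and none lower (median 0.28), and the difference was called for 3 higher and 3 lower (median -0.02). At 24 h KO called 22 higher and none lower (median 0.34), F121A called 12 higher and none lower (median 0.27), and the difference was called for 4 higher and 1 lower (median 0.02); at rest it was called for 26 higher and none lower (median 0.89). Without WT replicates 1, 3 and 5 of KI, F121A called 2 higher and none lower (median 0.29) at 24 h. Of 47 cytosolic ribosomal protein genes tested, KO called none higher and 37 lower (median -0.43) at 6 h and F121A called none higher and 25 lower (median -0.42), with the difference called for 1 higher and none lower (median -0.01). At 24 h KO called 2 higher and 2 lower (median -0.19). F121A called none higher and 40 lower (median -0.55) at 24 h with all WT libraries and none without replicates 1, 3 and 5 (median -0.39), where 32 of the 47 were lower at an unadjusted p under 0.05 in edgeR's test.

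The autophagy pathway itself was called in part, beside 12.2% of all genes at 6 h and 7.1% at 24 h. Of 31 core autophagy genes, the difference was called for 5 higher and 2 lower (median 0.10) at 6 h and for none at 24 h in edgeR's test (median -0.08), where 4 had an unadjusted p under 0.05 and DESeq2 called 1. Of 12 genes of the Beclin1 and class III PI3-kinase complexes it was called for none higher and 3 lower (median -0.13) at 6 h and none higher and 3 lower (median -0.18) at 24 h, Becn1 among them. Bcl2l1, which encodes the Beclin1-binding protein Bcl-xL, had -0.61 ± 0.15, adjusted p = 0.00185 at 6 h and -0.63 ± 0.15, adjusted p = 0.00216 at 24 h. Bcl2l1 was not among the opposite genes at either time. Its knockout effect was -0.46 ± 0.10 at 6 h and its F121A effect 0.73 ± 0.11 at 24 h, values from different times. Its difference at 24 h was -0.26 and lost the call without WT replicates 1, 3 and 5 of KI. Lamp1, a lysosomal membrane protein, was opposite at 6 h, with -0.56 ± 0.18 in KO and 2.1 ± 0.22 in F121A. Sqstm1, the cargo receptor p62, had 1.12 ± 0.20, adjusted p = 1.16e-05 at 6 h, with 0.77 ± 0.13 in KO and -0.35 ± 0.15, adjusted p = 0.141 in F121A. Of 39 lysosome and TFEB target genes, the difference was called for 5 higher and 3 lower (median 0.02) at 6 h and 4 higher and 5 lower (median 0.06) at 24 h. Atp6v0d2, a subunit of the lysosomal proton pump (difference 2.91 ± 0.28), and Gpnmb, a lysosomal glycoprotein (difference 1.65 ± 0.17), were higher in KO at 24 h (2.93 ± 0.20 and 1.79 ± 0.12), with F121A effects of 0.02 ± 0.19 and 0.15 ± 0.13.

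A separate cohort of the same knockout, KO1, gave a reading of the knockout side from libraries that the joint test did not use. It had 3 sample numbers per genotype, S33 to S35 in WT and S36 to S38 in KO, with 3 repeats of each summed at each time. The numbers are called cultures here, though the titles do not say what they stand for. The same numbers recurred at rest, 6 h and 24 h, and the KO1 test did not pair them across times. Of 13693 genes tested, 3 were called at 6 h (0.0219%, with 0.0146% higher and 0.0073% lower), 1 at 24 h (0.0073%, lower) and 3 at rest (0.0219%, with 0.0146% higher). No opposite gene was called at its time, so directions and unadjusted p-values of edgeR's test are given. Of the 53 genes higher in KO and lower in F121A at 6 h, 46 were above 0 in KO1 (86.8%, against 54.4% of all genes), with a median of 0.33 against 0.03 (0.20 without culture S33), and 13 had an unadjusted p under 0.05, against 4.86% of all genes. Of the 144 autosomal genes of the other direction that KO1 tested, 82 were below 0 (median -0.06) and 11 had such a p, and the median turned to 0.04 without culture S33, 0.07 without S34 and 0.06 without S38, and was -0.17 without S35 and -0.11 without S37. Of the 71 genes higher in KO and lower in F121A at 24 h, 55 were above 0 (77.5% against 47.7%), with a median of 0.32 against -0.02, and 9 had such a p, against 6.88% of all genes. Of the 38 autosomal genes of the other direction, 35 were below 0 (median -0.24) and 6 had such a p. KO1 cells of both genotypes expressed Y-linked genes, so sex did not move with genotype there.

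Single genes varied in KO1. At 24 h the KO1 knockout effect was 2.17 ± 0.76, adjusted p = 0.615 for Il1a and 1.76 ± 0.56, adjusted p = 0.579 for Il12a. It was 1.7 ± 1.06, adjusted p = 0.81 for Cxcl1, 0.91 ± 0.58, adjusted p = 0.815 for Il6 and 0.57 ± 0.73, adjusted p = 0.933 for Il12b, while Tnf had -0.19 ± 0.35, adjusted p = 0.955. C1qb had -0.50 ± 0.32 and C1qc -0.52 ± 0.32. At 6 h Cxcl1 had 2.04 ± 0.92, adjusted p = 0.997, and Il4ra had 0.05 ± 0.29 and Socs3 0.54 ± 0.41, not the direction they had in KO2. In WT macrophages of KO1, 56.7% of all genes were called between 6 h and rest (25.7% higher and 31.1% lower), 54.6% between 24 h and 6 h (28.7% higher and 25.9% lower) and 41.9% between 24 h and rest (21.3% higher and 20.6% lower). Of the 71 genes higher in KO and lower in F121A at 24 h, 69% were called higher at 6 h than at rest, against 26.2% of the genes also tested in the joint test, and 49.3% were called lower at 24 h than at 6 h, against 23.6%.

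**Figure D5:**
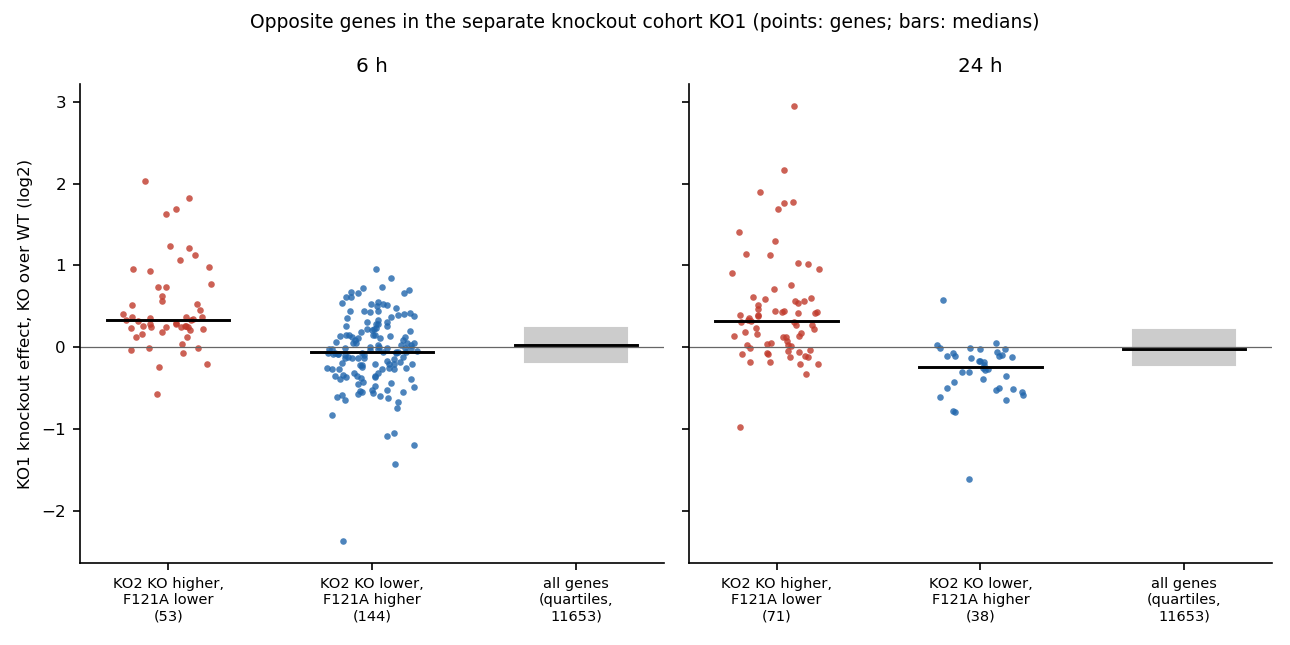
Log2 knockout effect in KO1 (y axis) of the autosomal opposite genes by direction at 6 h and 24 h, with a point for each gene and a bar for the median; the grey box gives the quartiles of all 11653 genes. At 24 h 55 of 71 points of the first group lie above 0 and 35 of 38 points of the second lie below 0.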

How the data were processed

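RNA was measured by Smart-Seq2 with oligo-dT priming. The authors deposited raw counts per gene, and TopHat, HTSeq and mm10 are named per the submitters' processing notes, with versions not given in the sources used here. Strand was not used, so overlapping genes cannot be told apart. Genes with near copies, such as Bcl2a1a and H2-Q7, are uncertain. KO2 and KI counts were fitted jointly with edgeR 4.0.16 in R 4.3.3 (12 groups, 83 libraries, 28 of them at rest; TMM scaling, filterByExpr, quasi-likelihood tests, Benjamini-Hochberg adjustment over 11782 genes). KO1 repeats were summed per culture and fitted apart. No copy was found among the 251 pairs of libraries compared, which were not all pairs of the series. On data simulated for the difference at 24 h, 49% of genes changed 2-fold and 84% of those changed 4-fold were recovered, with 5 false calls among 11434 genes. Simulated libraries of a group varied independently, so the split of the WT libraries of KI at 24 h was not in them.

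The members and gene lists were chosen with earlier results of these data known. The naming rule took, at each time, the 10 highest and 10 lowest differences among called autosomal genes whose mean log2 CPM reached 3, up to 12 opposite genes per direction by the size of the smaller effect, and up to 3 called genes per list by adjusted p. Genes outside that rule were chosen after their values were seen. The 9 planned and 6 added alternatives were DESeq2 1.42.0, its size factors, limma 3.58.1 (voom), no count filter, other groupings of libraries, X and Y genes left out, single libraries or sets of libraries left out, and removal of each library's GC trend. Promoters came from RefSeq. Gene positions came from GENCODE. Some genes of the lists are not reported here.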

Additional observations from a re-analysis of the deposited data

Results flagged for a closer look

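Some libraries lay far from the others of their group, by Dixon's test over the 12 plotted genes. C1qa stood at 288 CPM in KO replicate 7 of KO2 at 6 h, against 152 to 201 CPM in the other KO libraries. It stood at 143 CPM in KO replicate 1 at 24 h, against 92.5 to 113 CPM in the others, and at 440 CPM in WT replicate 4 of KO2 at 6 h, against 252 to 314 CPM in the others. In that same WT library Fcgr4 stood at 808 CPM, against 490 to 615 CPM in the others. Socs3 stood at 608 CPM in KO replicate 7 at 6 h, against 1280 to 1830 CPM in the others, and Fgl2 at 229 CPM in KO replicate 9 at 24 h, against 381 to 490 CPM in the others. In KI, Il12b stood at 143 CPM in F121A replicate 3 at 24 h, against 50.4 to 77.3 CPM in the others, and at 24000 CPM in WT replicate 2 at 6 h, against 19100 to 20800 CPM in the others. H2-Ab1 stood at 944 CPM in WT replicate 5 of KI at 6 h, against 1600 to 1950 CPM in the others. These were 9 of 96 sets of values, each 1 gene in 1 group (9.38%), and chance marks about 1 in 20.

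The difference changed between 6 h and 24 h, by the test of that change in edgeR, in 7 of the 12 plotted genes. Among all genes tested it was called for 5.81%, 3.88% higher and 1.93% lower. The change (24 h minus 6 h, log2) was 3.13 for Il12b, 2.12 for Il6, 1.88 for Il12a, 2.1 for Tnf, 1.97 for Il4ra, 1.44 for Ccl7 and 2.21 for Socs3. All 7 moved up, but the plotted genes were chosen with earlier results known, which can favour calls and this direction. For Tnf the F121A effect at 24 h was called with and not without WT replicates 1, 3 and 5 of KI.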

How the results depend on the processing

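Both signs of every opposite gene were kept under every alternative that could be fitted, except without WT replicates 1, 3 and 5 of KI at 24 h, where 106 of 110 kept them. Without those 3 libraries F121A called 96 genes at 24 h, the difference 497, and 28 genes were opposite, and without WT replicates 2, 4 and 6 F121A called 1131 genes. With no count filter 124 genes were opposite at 6 h, against 201. Over all alternatives the opposite genes numbered 124 to 249 at 6 h and 28 to 164 at 24 h. In KO1, the count of calls at 6 h was 5 by DESeq2, 72 with no filter and 0 to 4 without 1 culture, and at 24 h it was 9, 86 and 0 to 8. The cause was not tested. Within a time, same-numbered mutant and WT libraries correlated at -0.335 to 0.378 in KO2 and -0.135 to 0.297 in KI. In KI 5 of 6 pairs exceeded 0.1 at 6 h, 2 of 6 at 24 h and none at rest. The main test did not pair libraries, and pairing across times was not checked. With a replicate block the difference called 1499 genes at 6 h and 880 at 24 h, and 224 genes were opposite at 6 h. With libraries summed by number it called 1179 and 864 genes, and 155 were opposite at 6 h. Of 302 calls of named genes, 30 were lost with no filter, 46 without WT replicates 1, 3 and 5, and 29 with libraries summed by number. Depth limits calls of genes with few counts.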
